A study of Mus musculus with 4 samples.

Results

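The genes described are the heat shock proteins and chaperonins of the mouse: every gene symbol in the deposited count tables that begins with Hspa, Hspb, Hspd, Hspe or Hsph and a digit, with Hsp90, with Dnaja, Dnajb or Dnajc and a digit, or with Cct and a digit from 2 to 8, together with Tcp1. The rule uses names alone and no measured value. It finds 83 of 31748 genes, after 3 matching pseudogene rows marked -ps were left out. Of the 83, 66 had enough counts to be tested. The other 17 had at most 27 counts in any library, and 7 of these had no count in all 4 libraries.

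The libraries are RNA-seq of spleen T cells labelled CD4+ from TEa mice, whose transgenic T cell receptor is directed at an I-E alpha peptide on the class II molecule I-A. The KO group (2 libraries) carries TEa and lacks Mthfd2, which encodes a folate enzyme of mitochondria, and the WT group (2 libraries) carries TEa and is labelled wild type. By the labels, both groups were cocultured for 3 days with mitomycin-treated antigen-presenting cells of spleen from F1 (BALB/c x C57BL/6) mice aged 8 weeks, so all 4 libraries share the transgene and the culture. The labels used here give neither the deleted part of Mthfd2 nor the source animal or culture of each library. P-values therefore rest on a library-to-library spread that may be only technical.

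Heat shock proteins and chaperonins bind unfolded proteins and help them to fold, to cross membranes or to be destroyed. HSP70 proteins hold a client in cycles of ATP hydrolysis that J-domain proteins, encoded by the Dnaj genes, start and that nucleotide exchange factors, among them the HSP110 proteins, end. HSP90 acts late in folding on kinases and steroid receptors, while the chaperonins HSP60 (in mitochondria) and CCT (in the cytosol) enclose a client in a chamber. T cells are known to enlarge this machinery when they are activated and grow.

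Total counts lay between 14191401 and 15955863 per library. Mthfd2 itself stood at 222 and 252 CPM (read counts scaled to a common library total) in the KO libraries, against 280 and 280 CPM in the WT libraries, a log2 fold change of -0.24 ± 0.14 (SE, n = 2 per group) with an adjusted p of 0.324 in edgeR's quasi-likelihood test. The targeted gene was therefore still counted in the libraries labelled KO, the region deleted is not known here, and the group labels rest on the submitters. The cell type label was not borne out by its markers, since Cd8a had 3.10 to 4.00 times the counts of Cd4 in every library (not scaled for length) and Trbv19, from which the TEa beta chain is made, gave no more than 8.39% of Trbv counts. On the first principal component of log2 CPM over all tested genes (69.0% of variance), the KO libraries lay at 43.8 and 40.9, against -65.1 for WT replicate 1 and -19.6 for WT replicate 2. The axis separates KO from WT, and the WT libraries lay farther from each other than the KO libraries did, with WT replicate 1 at its end. Results that change without WT replicate 1 are given also without it.

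Markers of other cells moved with the groups. Summed CPM of 8 B cell genes was 435 and 381 in KO, against 1273 and 785 in WT, and 6 of the 8 fell by the test that is used for all genes here, an adjusted p under 0.05. Their median log2 fold change was -1.40, and -0.98 without WT replicate 1. All 5 MHC class II genes fell, with a median of -1.46. Summed CPM of 6 T cell genes was 1695 and 1714 in KO, against 1034 and 1225 in WT, and Cd3e, Cd3g and Cd3d rose. Summed CPM of 9 myeloid genes was 14.6 and 11.7 in KO, against 48.3 and 32.0 in WT, with 1 of 6 tested lower, and that of 5 red cell genes was 6.86 and 3.08 in KO, against 127 and 32.3 in WT, with 2 of 4 tested lower. Siglech, a gene of plasmacytoid dendritic cells, had 0 counts in both KO libraries, against 58 and 10 in WT, and lacked the counts to be tested. Of the 4 tested genes of the dendritic cell list, 2 were positive and 2 negative. Of 4 plasma cell genes 2 fell, of 4 NK cell genes 1 rose, and edgeR called none in the CD4, CD8, dendritic cell and stroma lists (DESeq2 called 1 CD8 gene higher, 1 dendritic cell gene lower and 1 stroma gene higher), while no neutrophil gene had enough counts to be tested. These levels were measured in the same RNA as the chaperone genes, their part in the results was not tested, and in a bulk sample fewer cells of a type and less RNA per cell cannot be told apart.

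Across the whole set, chaperone genes lay lower in KO more often than genes at large, while only a few changes passed the test. Of all 12752 tested genes, 2.39% were called higher and 1.56% lower at an adjusted p under 0.05. Of the 66 tested members, 1 was called higher (Dnajc15) and 1 lower (Hsph1). The log2 fold change was negative for 49 of the 66, or 74.2%, beside 50.2% of all tested genes. Both KO libraries lay below both WT libraries for 38 members (57.6%), beside 30.1% of all genes, and above both for 12 members (18.2%), beside 29.8%. At an unadjusted p under 0.05, 18 members were lower (27.3%, beside 12.7% of all genes) and 2 were higher (3.03%, beside 12.8%). The median log2 fold change was -0.27 over the members and -0.0026 over all tested genes.

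Summed over all 83 members, the level was 18088 and 20979 CPM in KO, against 25174 and 23160 CPM in WT, so the groups did not overlap. Without WT replicate 1, 42 of the 66 were negative, beside 49.0% of all genes, 9 were lower at an unadjusted p under 0.05 (9.02% of all genes were), and no member was called lower. DESeq2 called 2 members higher and 9 lower in the same counts, where it called 6.7% of all genes higher and 6.11% lower. limma-voom called 1 member higher and 2 lower, beside 2.95% and 1.7% of all genes. With KO replicate 1 or KO replicate 2 left out, edgeR called no gene at all, members included, while 1566 and 2097 genes had an unadjusted p under 0.05.

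**Figure D1:**
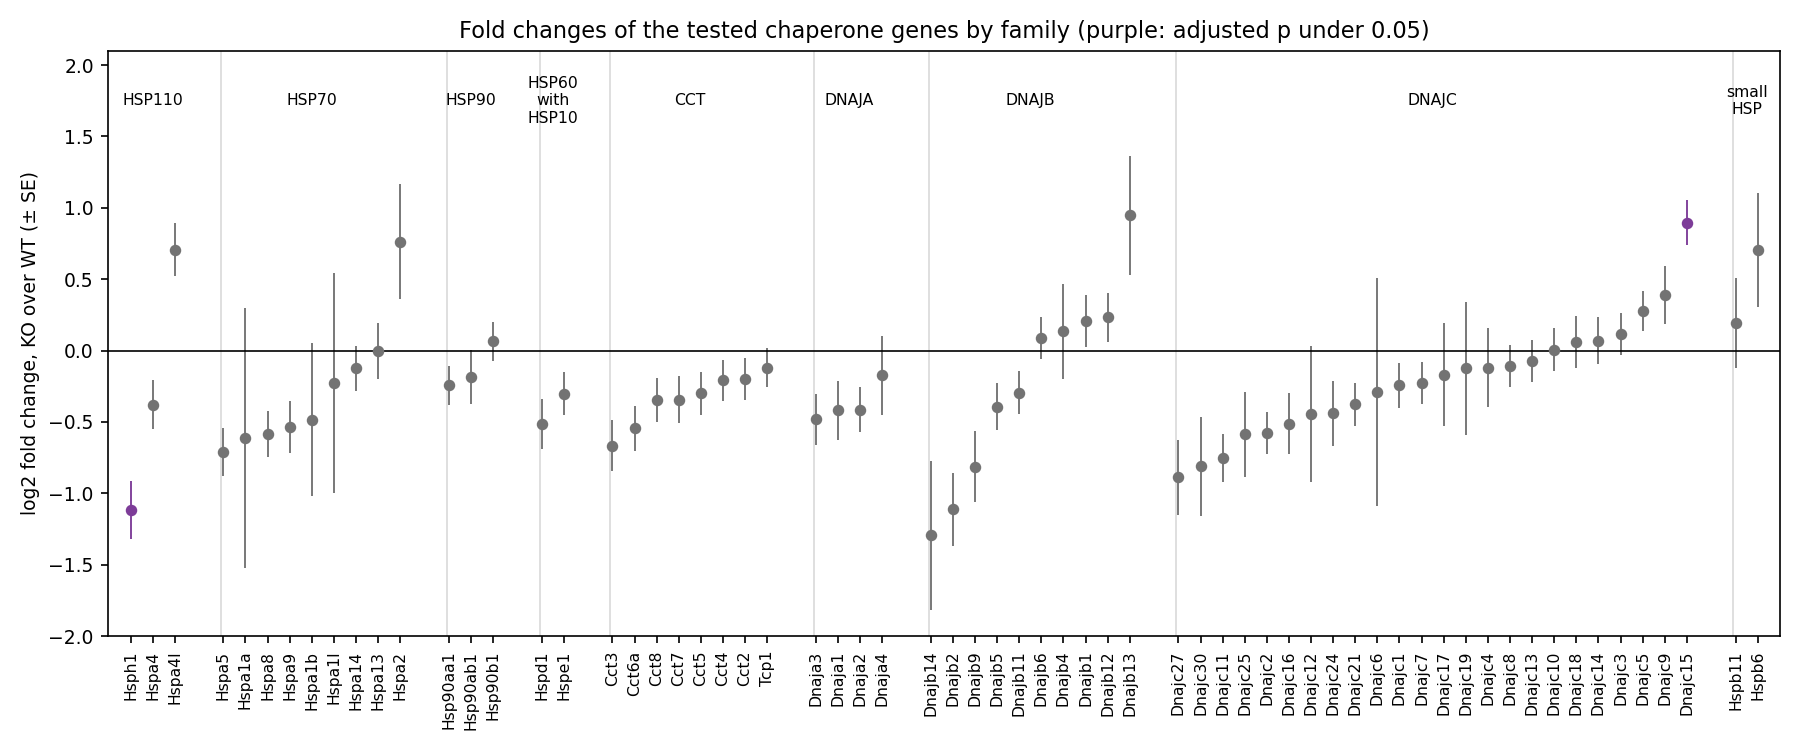
Log2 fold change of KO over WT for 65 of the 66 tested chaperone genes, grouped by family and sorted within it, with bars for the standard error (n = 2 libraries per group). Purple marks Hsph1 (-1.12) and Dnajc15 (0.90), the members called at an adjusted p under 0.05, and most other points lie below 0.

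The HSP110 genes, which encode nucleotide exchange factors of HSP70, lay on both sides of 0. Hsph1 (ENSMUSG00000029657.15, GRCm38 chr5:149614287-149636376, minus strand), also known as HSP105, stood at 165 and 216 CPM in KO, against 471 and 355 CPM in WT. It fell by 1.12 ± 0.20 on the log2 scale (SE), with an edgeR adjusted p of 0.0421, and both KO libraries lay below both WT libraries. Without WT replicate 1 the value was -0.89 with an adjusted p of 0.0502, and without KO replicate 1 or KO replicate 2 it was -0.93 (adjusted p = 0.324) and -1.32 (adjusted p = 0.180).

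Hspa4 (GRCm38 chr11), the HSP110 gene with the highest mean CPM, stood at 514 and 667 CPM in KO, against 764 and 771 CPM in WT. That is a log2 fold change of -0.38 ± 0.17, which did not pass the test (adjusted p = 0.219). Hspa4l, a relative of Hspa4, ran the other way at 57.7 and 64.6 CPM in KO, against 42.1 and 32.8 CPM in WT, a log2 fold change of 0.71 ± 0.18 (adjusted p = 0.0788 in edgeR). It was called higher by DESeq2, and by edgeR without WT replicate 1. The ratio of Hspa4l counts to Hsph1 counts within a library was 0.350 and 0.299 in KO, against 0.0896 and 0.0924 in WT. This pair has the highest and the lowest fold change of the HSP110 genes, so a difference in its ratio is fixed by the choice. No 50-base word of the Hsph1 transcripts was found in the transcripts of another gene.

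**Figure D2:**
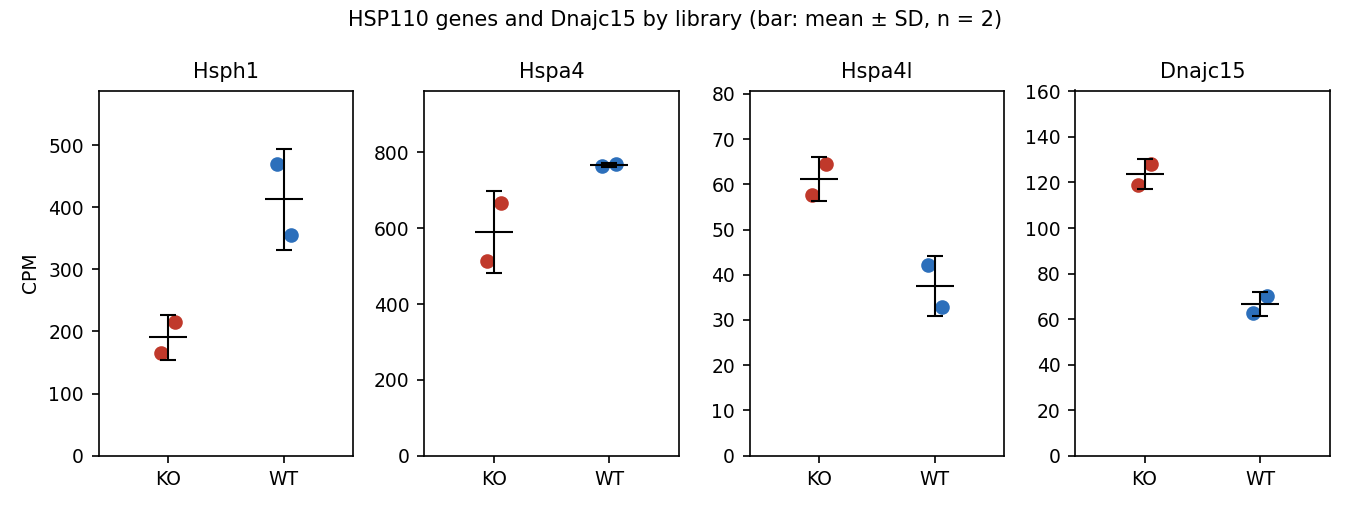
CPM in each library (points) for the HSP110 genes Hsph1, Hspa4 and Hspa4l and for Dnajc15, KO left of WT, with the mean and SD (n = 2) as a bar. Hsph1 lies lower in both KO libraries (165 and 216 against 471 and 355 CPM), while Hspa4l and Dnajc15 lie higher in both.

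Dnajc15, also called MCJ, is a J protein of the mitochondrial inner membrane that is known to hold back respiratory complex I. The gene (ENSMUSG00000022013.4, GRCm38 chr14:77820681-77875125, minus strand) stood at 119 and 128 CPM in KO, against 62.7 and 70.2 CPM in WT. It rose by 0.90 ± 0.16 on the log2 scale (adjusted p = 0.0400), or 1.86-fold, and both KO libraries lay above both WT libraries. No 50-base word of its transcripts is shared with other genes. It stayed called without either WT library and lost the call without KO replicate 1 (0.95, adjusted p = 0.322) and without KO replicate 2 (0.84, adjusted p = 0.213).

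Promoter sequence from RefSeq (GRCm38.p6) is shown for members that hold the elements known from the heat shock and endoplasmic reticulum (ER) stress responses, and for Dnajc15, the member that rose. Windows of 300 bases (250 before and 50 after each start) were present for 67 of the 83 members and for 27025 genes in all. The heat shock element, searched on both strands as GAA, any 2 bases, TTC, any 2 bases and GAA, or as its reverse complement, was found in 4 of the 67 (5.97%), namely Dnajb6, Hspd1, Hspe1 and Hsph1, beside 0.662% of all genes. The ER stress element, searched on both strands as CCAAT, any 9 bases and CCACG, was found in 3 of the 67 (4.48%), namely Dnajc3, Hsp90b1 and Hspa5, beside 0.137%. The E-box CACGTG was found in 6 of the 67 (8.96%), beside 8.09%. A match is a description of these letters and not a measure of binding. The sequences run 5′ to 3′ on each gene's own strand, and capitals mark the heat shock element matches:
Hsph1, bases 29 to 50 after the start (chr5:149636287-149636308): gctgcagaTTCTGGAAAGTTCt
Hspe1, the 120 bases before the start (chr1:55088028-55088147): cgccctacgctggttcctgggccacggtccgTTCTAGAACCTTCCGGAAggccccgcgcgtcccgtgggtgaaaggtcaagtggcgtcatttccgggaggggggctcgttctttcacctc
Dnajb6, the 120 bases before the start (chr5:29735778-29735897): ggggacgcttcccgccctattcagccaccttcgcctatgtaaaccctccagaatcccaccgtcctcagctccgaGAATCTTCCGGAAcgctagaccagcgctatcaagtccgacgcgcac
In Hspe1 the capitals hold 2 overlapping matches, which are the same bases as the matches of Hspd1, since these genes start back to back on chromosome 1. Of the genes that hold the element, Hsph1 fell, while Hspd1 and Hspe1 had log2 fold changes of -0.51 and -0.30 that did not pass the test. Dnajb6, a J protein known to hold back aggregation, stood at 55.1 and 56.2 CPM in KO, against 51.4 and 53.2 CPM in WT (0.09, not called). Neither a difference between these genes nor a link of the element to their fold changes was tested.

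Here capitals mark the ER stress element matches, which in Hsp90b1 lie on the opposite strand, and the last sequence, of Dnajc15, holds none of the 3 motifs searched:
Hspa5, the 120 bases before the start (chr2:34771970-34772089): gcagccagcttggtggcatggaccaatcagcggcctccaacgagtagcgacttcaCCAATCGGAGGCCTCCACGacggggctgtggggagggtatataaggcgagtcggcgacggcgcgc
Hsp90b1, the 120 bases before the start (chr10:86705445-86705564): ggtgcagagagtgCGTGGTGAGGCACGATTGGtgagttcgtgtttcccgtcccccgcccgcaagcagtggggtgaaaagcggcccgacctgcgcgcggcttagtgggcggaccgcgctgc
Dnajc3, the 120 bases before the start (chr14:118937812-118937931): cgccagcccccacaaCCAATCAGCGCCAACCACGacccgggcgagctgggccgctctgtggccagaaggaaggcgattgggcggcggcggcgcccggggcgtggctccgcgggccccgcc
Dnajc15, the 120 bases before the start (chr14:77874918-77875037): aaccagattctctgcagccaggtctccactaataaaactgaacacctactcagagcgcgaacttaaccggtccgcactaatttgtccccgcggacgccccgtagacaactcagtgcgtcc

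The HSP70 family had 9 tested members of 11. Their median log2 fold change was -0.48, 8 of the 9 were negative, beside 50.2% of all genes, and none was called by edgeR. That median is the value of Hspa1b, a gene with few counts in which the groups overlapped. In the family 3 were lower at an unadjusted p under 0.05 (33.3%, beside 12.7% of all genes). DESeq2 called 2 lower and limma-voom none, beside 6.11% and 1.7% of all genes. Without WT replicate 1 only 4 of the 9 were negative and the median was 0.19. Hspa5, Hspa8 and Hspa9 stayed negative under every alternative run.

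These abundant genes each serve a compartment. Hspa8 (HSC70), the constitutive HSP70 of the cytosol, stood at 951 and 1083 CPM in KO, against 1635 and 1422 CPM in WT (-0.59 ± 0.16, adjusted p = 0.0851). Hspa5 (BiP, GRP78), the HSP70 of the ER, stood at 685 and 800 CPM in KO, against 1324 and 1110 CPM in WT (-0.71 ± 0.17, adjusted p = 0.0612). Hspa9 (mortalin), the HSP70 that pulls proteins into mitochondria, stood at 580 and 753 CPM in KO, against 1036 and 896 CPM in WT (-0.53 ± 0.18, adjusted p = 0.133). For all 3, both KO libraries lay below both WT libraries. This held for no other tested HSP70 gene, and so for 33.3% of them, beside 30.1% of all genes. The difference in the 3 missed the threshold in edgeR. DESeq2 called Hspa5 and Hspa8 lower, and edgeR with the replicate block called Hspa5. Of the 50-base words of Hspa8, 39.4% also occur in other genes' transcripts, many of them pseudogenes, so its count is uncertain.

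The heat-inducible HSP70 genes had few counts. Hspa1a stood at 0.49 and 2.37 CPM in KO, against 3.48 and 0.88 CPM in WT, and Hspa1b at 2.47 and 4.52 CPM in KO, against 6.78 and 2.97 CPM in WT. The groups overlapped in both genes, and the sign of Hspa1a turned to 0.70 and that of Hspa1b to 0.24 without WT replicate 1. These genes are near-identical copies, with 66.3% and 62.3% of their words found elsewhere, so the split between them is uncertain. Their level is uncertain too, since the handling of multiply mapped reads is not given. Hspa2, an HSP70 best known from the testis, stood at 7.42 and 6.45 CPM in KO, against 5.31 and 2.84 CPM in WT (0.76, adjusted p = 0.285), with 1.29 without WT replicate 1 and 0.39 without WT replicate 2.

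The HSP90 genes had small differences between the groups. Hsp90ab1, the constitutive cytosolic HSP90, was the highest member per length, at 1854 and 2218 CPM per kilobase in KO, against 2441 and 2188 CPM per kilobase in WT. Its CPM of 5562 and 6652 in KO, against 7320 and 6561 in WT, overlapped (-0.18 ± 0.19, adjusted p = 0.575). Hsp90aa1, the stress-inducible one, stood at 813 and 837 CPM in KO, against 976 and 979 CPM in WT (-0.24, adjusted p = 0.310), with 47.5% of its words shared. Hsp90b1 (GRP94), the ER member, stood at 594 and 592 CPM in KO, against 560 and 575 CPM in WT (0.06, adjusted p = 0.803). The family median of -0.18 came to -0.061 without KO replicate 1.

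**Figure D3:**
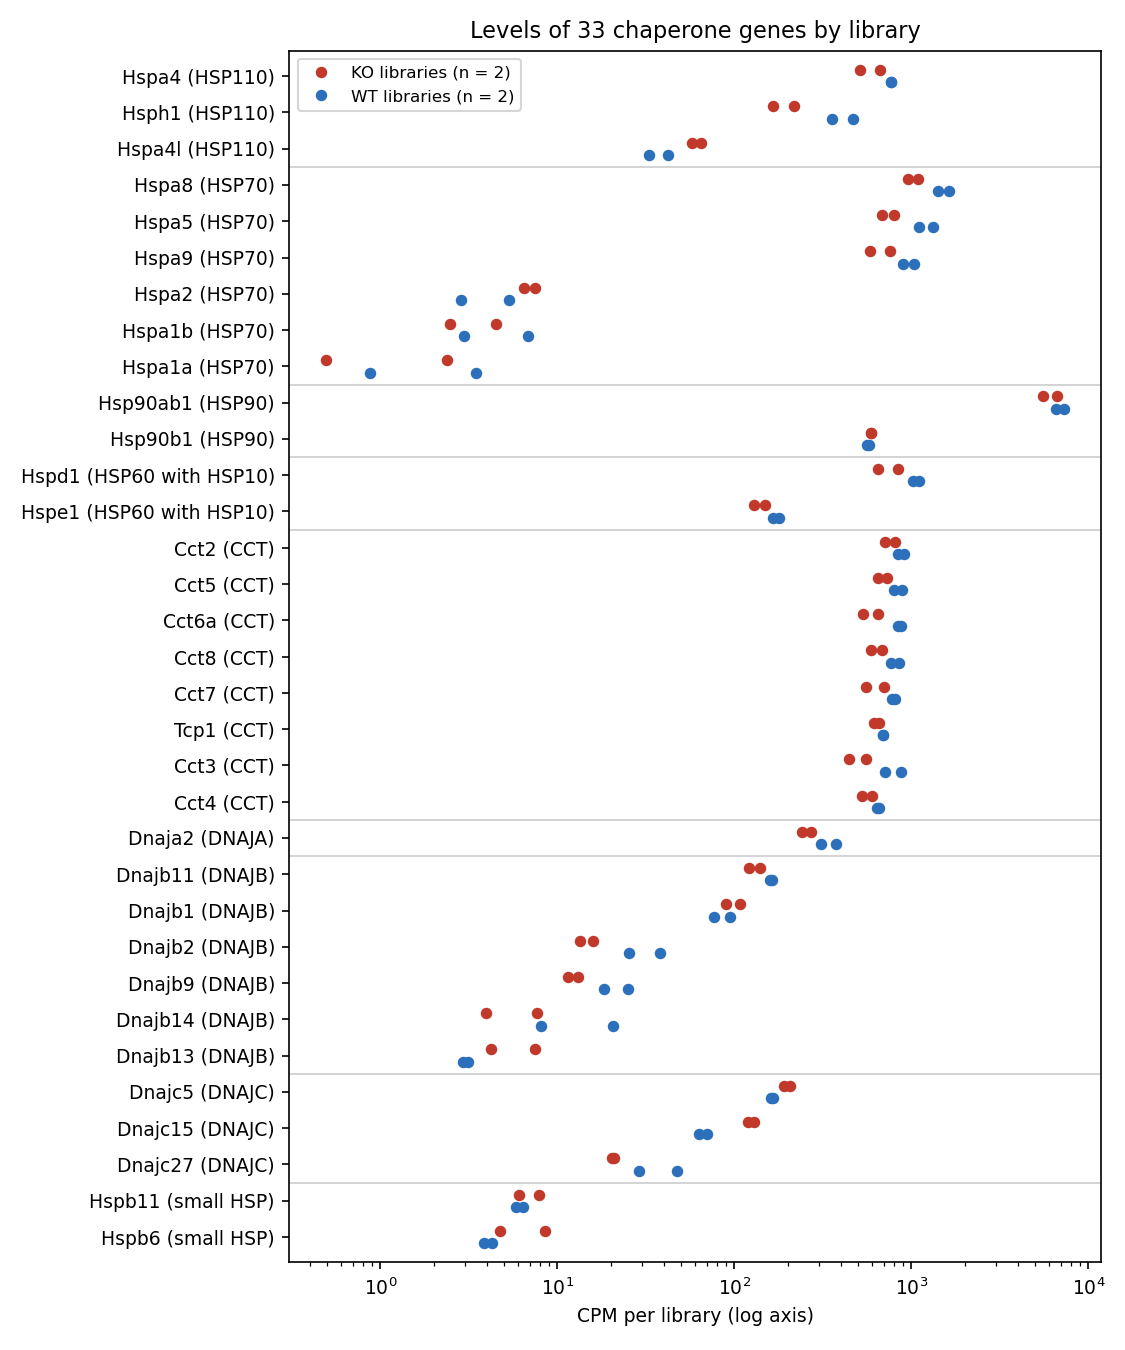
CPM in each library on a log axis for 33 chaperone genes, KO (red) above WT (blue) in each row, families separated by lines. Hsp90ab1 is the highest at 5562 to 7320 CPM, Hspa1a the lowest at 0.49 to 3.48 CPM, and the KO points of Hsph1, Hspa5 and Hspa8 lie left of their WT points.

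In the mitochondrial chaperonin, Hspd1 (HSP60) forms the barrel and Hspe1 (HSP10) its lid. Hspd1 stood at 649 and 840 CPM in KO, against 1021 and 1105 CPM in WT (-0.51 ± 0.17, adjusted p = 0.133). Hspe1 stood at 130 and 150 CPM in KO, against 179 and 166 CPM in WT (-0.30 ± 0.15, adjusted p = 0.264). Both genes lay lower in both KO libraries than in both WT libraries, beside 30.1% of all genes, and neither was called. Hspd1 and Hspe1 share 42.1% and 22.8% of their words with other genes, so reads may be split among copies.

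The CCT chaperonin, a ring of 8 kinds of subunit that folds actin and tubulin, lay lower in KO in all 8 of its genes, and none passed the edgeR test. Cct3 had the lowest value, with 443 and 555 CPM in KO, against 870 and 712 CPM in WT (-0.67 ± 0.18, adjusted p = 0.0837), and Cct6a followed with 530 and 648 CPM in KO, against 875 and 844 CPM in WT (-0.54 ± 0.16, adjusted p = 0.0963). Cct8 (-0.34), Cct7 (-0.34), Cct5 (-0.30), Cct4 (-0.21), Cct2 (-0.20) and Tcp1 (-0.12) lay nearer to 0, with adjusted p-values of 0.220 to 0.623. In every one of the 8 genes both KO libraries lay below both WT libraries, beside 30.1% of all genes, and all 8 stayed negative under each alternative run. The median was -0.32, and -0.20 without KO replicate 1. By test, edgeR and limma-voom called 0 of the 8, beside 1.56% and 1.7% of all genes called lower. DESeq2 called Cct3 and Cct6a lower, beside 6.11% of all genes. At an unadjusted p under 0.05 in edgeR, 2 of the 8 were lower (25.0%, beside 12.7% of all genes). The testis relatives Cct6b and Cct8l1 had at most 10 counts in a library and were not tested.

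The subunits share one ring, and their mRNAs were set side by side per length. Cct2 was highest at 278 and 317 CPM per kilobase of exon in KO, against 356 and 327 in WT, followed by Cct5 (233 and 264 in KO, against 322 and 290 in WT). Cct3 stood at 69.5 and 87.1 in KO, against 137 and 112 in WT, and was lowest in 3 of the 4 libraries. The count ratio of Cct3 to Tcp1 was 0.724 and 0.843 in KO, against 1.26 and 1.03 in WT. This pair has the lowest and the highest fold change of the 8, so a difference in its ratio is fixed by the choice, and differences between subunits were not tested. With the longest transcript as the length, Cct5 came before Cct2 in the WT libraries, and the lowest there was Tcp1 in WT replicate 1 and Cct7 in WT replicate 2, so the order at both ends depends on the length used.

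**Figure D4:**
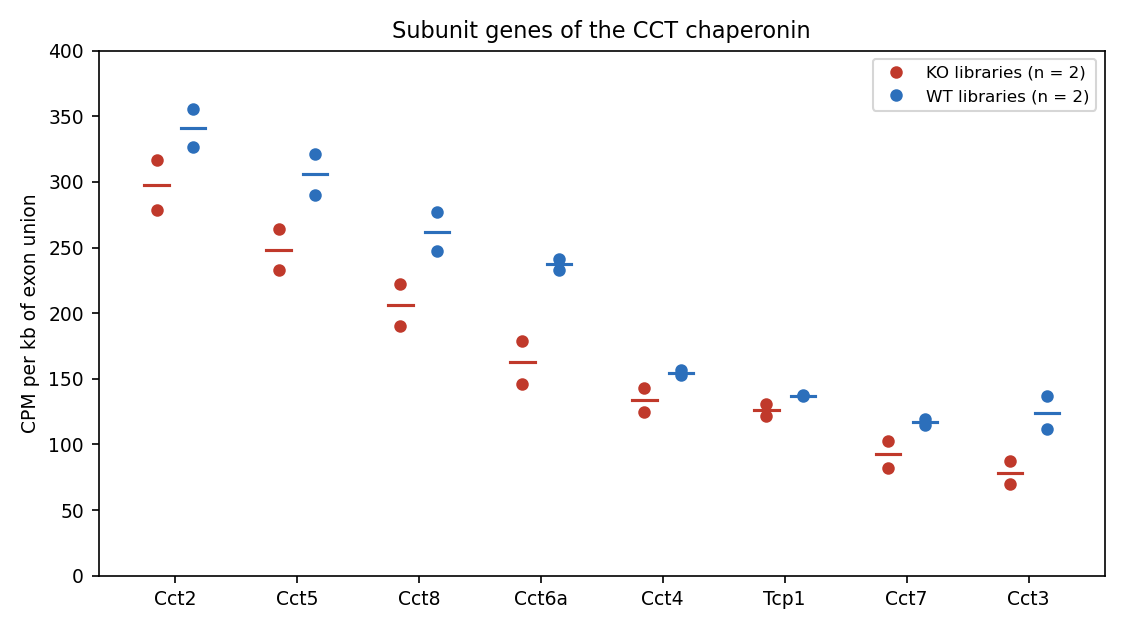
CPM per kilobase of exon for the 8 CCT subunit genes in each library, KO left of WT, with a short line at each group mean (n = 2 libraries). Both KO points lie below both WT points in each gene, and Cct3 is lowest in 3 of the 4 libraries.

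J-domain proteins deliver clients to HSP70 and set which HSP70 acts where. The 4 DNAJA genes had a median of -0.42 and both KO libraries below both WT libraries in all 4, beside 30.1% of all genes. None was called by edgeR, DESeq2 or limma-voom, and 2 were lower at an unadjusted p under 0.05, beside 12.7% of all genes. That count was 0 without KO replicate 1 and 0 without WT replicate 1. Dnaja2, the DNAJA gene with the highest mean CPM, stood at 242 and 270 CPM in KO, against 375 and 307 CPM in WT (-0.41, adjusted p = 0.170). Dnaja3 (Tid1), the mitochondrial one, stood at 66.8 and 82.4 CPM in KO, against 111 and 97.1 CPM in WT (-0.48, adjusted p = 0.155). The DNAJA median was -0.24 without WT replicate 1.

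The 10 tested DNAJB genes were split in sign, 5 negative and 5 positive. At an unadjusted p under 0.05, 3 were lower (30.0%, beside 12.7% of all genes) and 0 higher (beside 12.8%). Both KO libraries lay below both WT libraries in 5 (50.0%, beside 30.1%) and above both in 3 (30.0%, beside 29.8%). Dnajb2, a cochaperone with ubiquitin-binding motifs, stood at 15.9 and 13.3 CPM in KO, against 37.8 and 25.4 CPM in WT (-1.11 ± 0.26, adjusted p = 0.0599). Dnajb14, a J protein of the ER membrane, had the lowest log2 value of all members, at 7.71 and 3.94 CPM in KO, against 20.5 and 8.04 CPM in WT (-1.29 ± 0.52, adjusted p = 0.182), and -0.46 without WT replicate 1. Dnajb9 (ERdj4), which binds BiP, stood at 13.2 and 11.5 CPM in KO, against 25.0 and 18.3 CPM in WT (-0.81, adjusted p = 0.108).

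Other DNAJB genes lay on both sides of 0. Dnajb1 (HSP40), the main heat-inducible partner of HSP70, stood at 89.4 and 108 CPM in KO, against 94.3 and 76.3 CPM in WT, overlapping (0.21, adjusted p = 0.517). Dnajb11 (ERdj3), a partner of BiP and the DNAJB gene with the highest mean CPM, stood at 121 and 140 CPM in KO, against 158 and 163 CPM in WT (-0.30, adjusted p = 0.267). Dnajb13, known from sperm flagella, had the highest log2 value of all members (0.95, adjusted p = 0.215) on only 7.42 and 4.23 CPM in KO, against 2.93 and 3.11 CPM in WT, and 0.48 without KO replicate 1.

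The 24 tested DNAJC genes had a median of -0.20, and 17 were negative (70.8%, beside 50.2% of all genes). At an unadjusted p under 0.05, 5 were lower (20.8%, beside 12.7%) and 1 was higher (4.17%, beside 12.8%). Dnajc27, a RAB-like GTPase with a J domain, stood at 20.4 and 20.8 CPM in KO, against 47.5 and 28.7 CPM in WT (-0.89 ± 0.26, adjusted p = 0.101), and without WT replicate 1 the value was -0.47. Dnajc5, the cysteine string protein, stood at 190 and 205 CPM in KO, against 161 and 164 CPM in WT (0.28, adjusted p = 0.261). Chosen after their values were seen, Dnajc11, a partner of the complex that shapes mitochondrial cristae, stood at 81.7 and 102 CPM in KO, against 157 and 153 CPM in WT (-0.75 ± 0.17, adjusted p = 0.0559), and Dnajc2, a J protein of the ribosome, stood at 135 and 154 CPM in KO, against 216 and 215 CPM in WT (-0.58 ± 0.15, adjusted p = 0.0721). DESeq2 called both lower, and limma-voom called Dnajc11 lower.

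Of the 8 small heat shock protein genes only Hspb6 and Hspb11 were tested, both low. Hspb6 stood at 8.48 and 4.73 CPM in KO, against 3.85 and 4.26 CPM in WT (0.70, adjusted p = 0.312, and 0.22 without KO replicate 1), and Hspb11, despite its symbol a subunit of the transport machinery of cilia, at 7.85 and 6.09 CPM in KO, against 5.86 and 6.35 CPM in WT (0.19, adjusted p = 0.743), with groups that overlap. Hspb1 (HSP25 in the mouse) had 0 and 0 counts in KO, against 5 and 1 counts in WT.

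By compartment, the mitochondrial members had the lowest median. Of 9 tested, 8 were negative and 1, Dnajc15, was called higher. The median was -0.48, and 5 were lower at an unadjusted p under 0.05 (55.6%, beside 12.7% of all genes). At the adjusted threshold, DESeq2 and limma-voom each called only 1 of the 9 lower, Dnajc11, beside 6.11% and 1.7% of all genes. Each also called Dnajc15 higher. Summed CPM of the mitochondrial members was 1801 and 2235 in KO, against 2821 and 2702 in WT. The ER members were mixed in sign, with 8 of 14 negative (57.1%, beside 50.2% of all genes) and a median of -0.13. At an unadjusted p under 0.05 in edgeR, 4 of the ER members were lower (28.6%, beside 12.7% of all genes) and 0 higher (beside 12.8%). None passed the adjusted threshold in edgeR. DESeq2 called 1 of them lower and limma-voom 0, beside 6.11% and 1.7% of all genes. Within the ER, the count ratio of Hspa5 to Hsp90b1 was 1.15 and 1.35 in KO, against 2.36 and 1.93 in WT. A difference in this ratio follows from the fold changes of the pair, -0.71 and 0.06, and was not tested. Of 35 tested cytosolic or nuclear members 28 were negative, with a median of -0.24, and 20 of the 27 outside CCT were. No difference between families or compartments was tested.

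**Figure D5:**
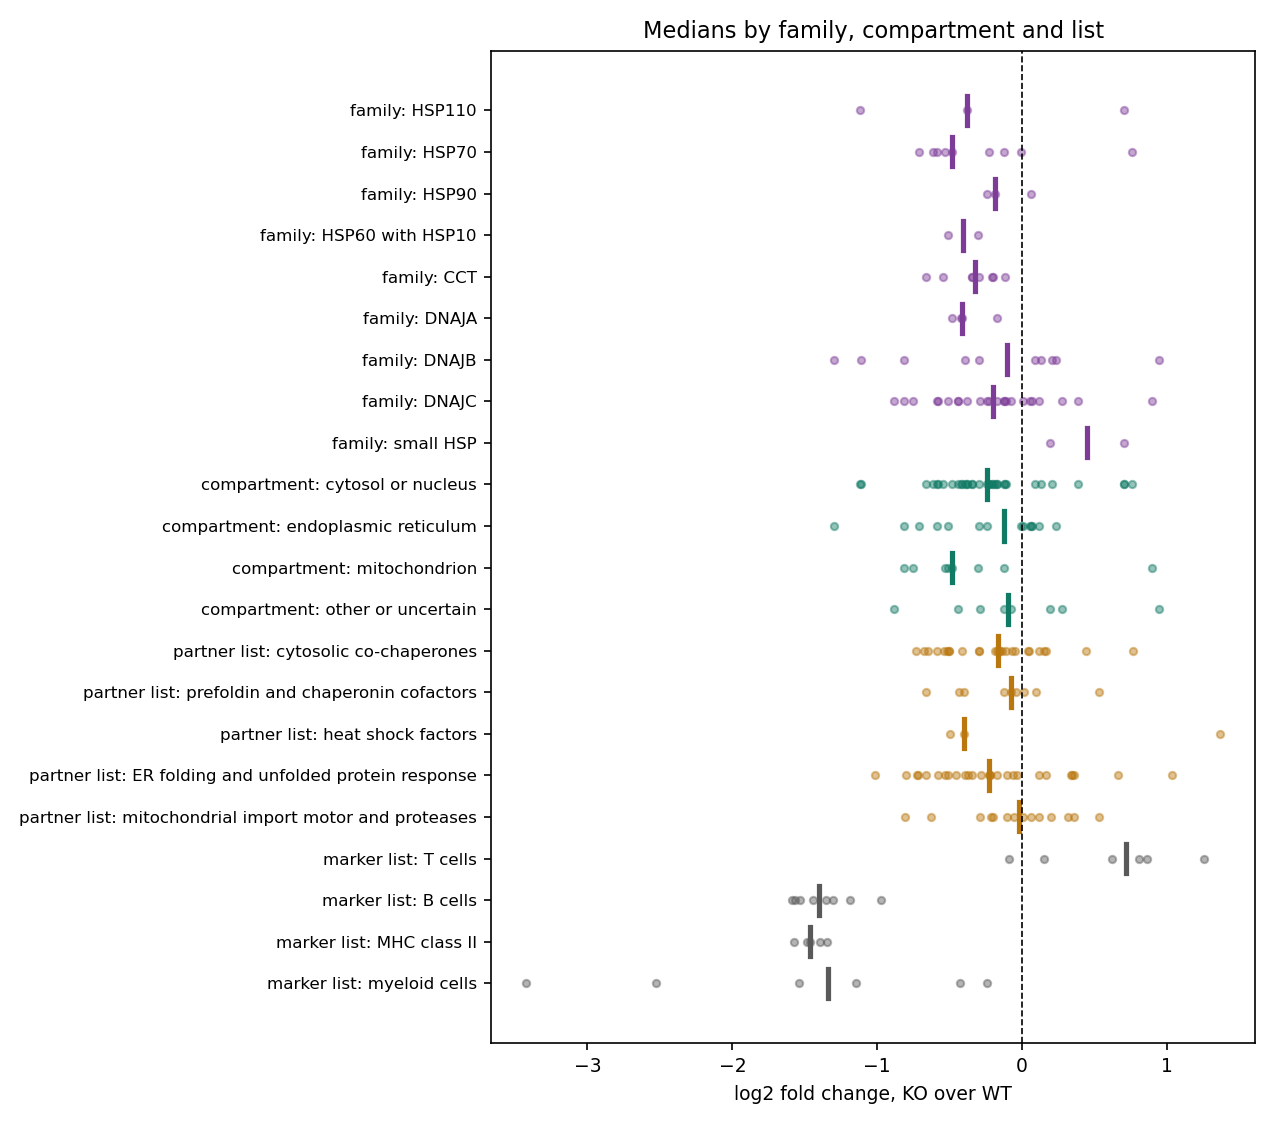
Log2 fold changes of KO over WT for single genes (points) and their median (bar) by chaperone family, compartment, partner list and marker list, with the median of all tested genes (-0.0026) dashed. The mitochondrial median (-0.48) lies below the ER median (-0.13), and the medians of the B cell (-1.40) and MHC class II (-1.46) markers lie lower than those of every chaperone family and compartment drawn.

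Negative values were most frequent among abundant members, by a split chosen after the values were seen. At a mean of 500 CPM or more, 15 of 16 members were negative, beside 35.8% of 254 such genes in all. At 50 to 500 CPM it was 15 of 23, beside 50.8%, and under 50 CPM 19 of 27, beside 50.3%. The abundant members include all 8 CCT genes described above, so this count is not separate from theirs. The exception among the abundant members was Hsp90b1.

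The partners of these chaperones were taken as 81 genes in 5 lists. Of 79 tested, edgeR called none at the adjusted threshold. Without adjustment 6 (7.59%) lay higher and 20 (25.3%) lower at a p under 0.05, beside 12.8% and 12.7% of all genes. DESeq2 called 3 (3.80%) higher and 11 (13.9%) lower, beside 6.7% and 6.11%, and limma-voom called 2 (2.53%) higher and 0 lower, beside 2.95% and 1.7%. Medians were -0.16 for cytosolic co-chaperones (26 genes), -0.08 for prefoldin and chaperonin cofactors (9), -0.23 for ER folding and the unfolded protein response (27), -0.02 for the mitochondrial import motor and proteases (14) and -0.40 for the heat shock factors (3). Hsf1, the main transcription factor of the heat shock response, stood at 56.8 and 65.8 CPM in KO, against 86.6 and 75.4 CPM in WT (-0.40 ± 0.17, adjusted p = 0.197).

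Some partners were chosen after their values were seen, as a pair of opposite sign from each compartment, so the opposite signs are a matter of choice. Ero1a, the oxidase that recharges protein disulfide isomerases in the ER, stood at 305 and 201 CPM in KO, against 121 and 126 CPM in WT (1.03 ± 0.22, adjusted p = 0.0506), while Hyou1, an ER relative of HSP110 that acts on BiP, stood at 180 and 234 CPM in KO, against 353 and 332 CPM in WT (-0.73 ± 0.17, adjusted p = 0.0621). In mitochondria, Lonp1, a protease of the matrix, stood at 312 and 323 CPM in KO, against 219 and 219 CPM in WT (0.53, adjusted p = 0.0711), and Grpel2, an exchange factor of Hspa9, at 17.3 and 22.2 CPM in KO, against 35.2 and 33.9 CPM in WT (-0.81, adjusted p = 0.0708). Among cytosolic co-chaperones, Fkbp5, an FK506-binding partner of HSP90, stood at 167 and 148 CPM in KO, against 84.1 and 101 CPM in WT (0.77, adjusted p = 0.0535), and Ahsa1, which speeds the ATPase of HSP90, at 142 and 195 CPM in KO, against 288 and 251 CPM in WT (-0.68, adjusted p = 0.0896). None of these 6 passed the threshold in edgeR, while DESeq2 called all 6 in the same directions and limma-voom called Ero1a and Fkbp5 higher.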

How the data were processed

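The authors deposited whole-number read counts per gene symbol, 1 table per library, not normalized. The submitters' processing notes name Subread 2.0.1 with featureCounts, mm10, R 4.0.4 and DESeq2 1.30.1. For the aligner, the annotation, strand and multiply mapped reads, settings are not given in the sources used, so antisense partners and near-identical copies cannot be told apart. Per the labels' protocols, DNase treatment and removal of ribosomal RNA preceded library preparation.

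From the counts, filterByExpr (minimum count 10, minimum total 15) kept 12752 of 31748 genes, which were scaled by TMM (factors 0.968 to 1.027) and tested for KO over WT by edgeR 4.0.16's quasi-likelihood test in R 4.3.3, with Benjamini-Hochberg adjustment over all kept genes and calls at an adjusted p under 0.05. CPM is relative to the TMM-scaled total. Levels between genes are per kilobase of exon union (GENCODE M21, GRCm38, where 82 of the 83 members were found). Both replicate pairs differed beyond sampling noise (chi-square per degree of freedom 16.1 for KO and 40.3 for WT). DESeq2 1.42.0, limma 3.58.1, other scalings and filters and leaving out each library were alternatives.

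The members and lists were chosen with earlier results of these data known. Named with values are members called, the highest of each family, the CCT genes, 9 chosen chaperones, the 5 highest and 5 lowest fold changes, and Hsf1 of the partners. Hsp90aa1, Dnaja3, Dnajb6, Dnajc2, Dnajc11, the untested genes and 6 partner genes were named after their values were seen. Dnajc3, also outside that rule, was named for its promoter element. Of the members, 1 counts in the totals and compartments but is not reported here by itself, in a family or in a figure.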

Additional observations from a re-analysis of the deposited data

How the results depend on the processing

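Of 33 named chaperone genes, 30 kept their direction under the settings run (up to 13 others each), and 3 turned. Hspa1a came to 0.11 without KO replicate 1 and 0.70 without WT replicate 1, Hspa1b to 0.24 without WT replicate 1 and Hspb11 to -0.0034 without KO replicate 1, while without KO replicate 2 Hspa1a was -2.13 and Hspb11 0.36. Calls moved more than directions. DESeq2 called 854 genes higher and 779 lower (2 and 9 chaperone genes), edgeR without a count filter 737 and 682 (2 and 9), upper quartile scaling left 122 lower, and limma-voom called 2 chaperone genes lower. With the replicate block, 488 genes were higher and 401 lower, with 4 chaperone genes lower (Hsph1, Dnajb2, Dnajc11 and Hspa5). Deviations of same-numbered libraries correlated at r = 0.0397, a single value with 2 pairs, and no label used here says what else a shared number marks. Among partners, DESeq2 called 5 cytosolic co-chaperones, 1 prefoldin or chaperonin cofactor, 6 ER folding genes and 2 mitochondrial genes. Without the filter these calls were 3, 0, 5 and 1, with the replicate block 1, 0, 3 and 0, and by limma-voom 1, 0, 1 and 0. The cause of these shifts was not tested. With 2 libraries per group, small changes are beyond what the test can call.

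With each library left out in turn, calls over all genes ran from 0 to 1423 higher and 0 to 1101 lower, and among chaperone genes from 0 to 2 higher and 0 to 11 lower. Partner calls ran from 0 to 6 for cytosolic co-chaperones, 0 to 2 for prefoldin and chaperonin cofactors, 0 to 1 for heat shock factors, 0 to 8 for ER folding and 0 to 2 for mitochondrial genes (the ER list had 1 without WT replicate 1). An arm with 1 library left is assumed to vary like the other. Median log2 fold changes then ran from -0.56 to -0.24 for DNAJA, -0.25 to -0.046 for DNAJB, -0.43 to -0.20 for CCT, -0.24 to -0.14 for DNAJC (-0.15 without KO replicate 1), -0.58 to -0.20 for HSP110, -0.56 to -0.27 for HSP60 with HSP10, -0.68 to 0.19 for HSP70 (-0.14 without KO replicate 1), -0.26 to -0.061 for HSP90 and 0.11 to 0.71 for small HSP. By compartment they ran from -0.37 to -0.19 for cytosol or nucleus (-0.36 without KO replicate 2), -0.22 to -0.077 for the ER and -0.17 to 0.075 for other or uncertain sites. Among partner lists they ran from -0.34 to -0.12 for co-chaperones, -0.26 to 0.096 for prefoldin, -0.51 to -0.14 for heat shock factors and -0.30 to -0.11 for ER folding. Among marker lists they ran from 0.60 to 0.82 for T cells, 0.18 to 0.40 for CD4, 0.32 to 0.44 for CD8, -1.66 to -0.98 for B cells, -1.78 to -1.05 for MHC class II, -1.91 to -0.73 for myeloid cells, -1.07 to -0.21 for dendritic cells, -0.34 to 0.60 for NK cells, -4.91 to -2.61 for red cells and 0.46 to 0.85 for stroma.

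Other settings that moved a median were the filter of 50 counts in 2 libraries (DNAJC -0.14, other or uncertain sites 0.068, plasma cells -1.35, dendritic cells -1.68, NK cells 0.74), library size alone (DNAJC -0.25, ER folding -0.27), limma-voom (DNAJC -0.13) and the replicate block (DNAJC -0.14). Library size alone also moved the median of all genes to -0.052. With the longest transcript as length, mean CPM per kilobase was 416.9 for Cct2, 413.6 for Cct5, 302 for Cct8, 295.1 for Cct6a, 244.1 for Cct4, 193.8 for Tcp1, 193.4 for Cct3 and 183 for Cct7.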
